A study of Mus musculus with 6 samples.

Results

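The 10 genes described here act in G2 and mitosis: Cdk1, Ccnb1, Ccnb2, Plk1, Aurka, Aurkb, Birc5, Bub1, Top2a and Mki67. They were chosen by name, as the rows whose Ensembl gene ID carries one of these symbols in the GRCm38 annotation, and all 10 were found among 54532 Ensembl genes in the count table. Liver RNA came from 6 mice, 3 wild-type and 3 homozygous for the targeted Cd44 allele Cd44tm1Hbg, held in the strain B6.Cg-Cd44tm1Hbg/J. CD44 is a cell surface receptor for hyaluronan, and this allele removes it from every cell rather than from 1 cell type. All 6 mice had a Lieber-DeCarli liquid diet containing 5% ethanol by volume for 10 days and an ethanol gavage of 5 g/kg on day 11, and their livers were taken 9 hours after the gavage. Mice without ethanol were not analysed here, so the comparison is between genotypes within the ethanol-exposed liver. The labels state neither age nor sex, nor whether the wild-type mice were littermates.

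Entry into mitosis is driven by the kinase CDK1 bound to a B-type cyclin. The kinases PLK1, Aurora A and Aurora B, the passenger protein survivin and the checkpoint kinase BUB1 then build the spindle, correct attachments and hold back anaphase, while topoisomerase II alpha untangles the chromosomes. Transcripts of these genes accumulate in G2 and are scarce in resting cells, so they serve as a measure of dividing cells; the adult liver has few of these, and more after injury or loss of tissue. In whole-liver RNA, fewer dividing cells and less of these transcripts in each dividing cell cannot be told apart.

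Promoters of such genes are known for a pair of elements: the cell cycle genes homology region (CHR), bound by the MuvB complex together with the DREAM repressors or with B-MYB and FOXM1, and the CCAAT box, bound by NF-Y. The genes moved together from mouse to mouse in the data below, and whether these elements had a part in that was not tested. For 5 of the genes, 150 bases before the RefSeq start site are shown. For Cdk1 and Ccnb1 that start lies inside the annotated gene span given below, so the window overlaps the span. CHR letters (TTTGAA or TTCGAA) and CCAAT are in capitals on either strand, where TTCAAA and ATTGG are the reverse readings. Sequences are from RefSeq on GRCm38.p6, 5′ to 3′ on the strand of the gene. Cdk1 lies at chr10:69352913-69353062 (minus strand) and has both elements, Top2a at chr11:99024190-99024339 (minus) has the most matches, Ccnb2 at chr9:70421555-70421704 (minus) and Ccnb1 at chr13:100786487-100786636 (minus) are the cyclin pair, and Birc5 at chr11:117849087-117849236 (plus) holds none of the 3 strings.
Cdk1: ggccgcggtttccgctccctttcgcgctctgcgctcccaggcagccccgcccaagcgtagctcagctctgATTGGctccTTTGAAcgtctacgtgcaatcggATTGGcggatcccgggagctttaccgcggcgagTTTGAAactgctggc
Top2a: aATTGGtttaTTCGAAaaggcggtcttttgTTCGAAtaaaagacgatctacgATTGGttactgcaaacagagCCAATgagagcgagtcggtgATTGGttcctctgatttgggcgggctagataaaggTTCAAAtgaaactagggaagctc
Ccnb2: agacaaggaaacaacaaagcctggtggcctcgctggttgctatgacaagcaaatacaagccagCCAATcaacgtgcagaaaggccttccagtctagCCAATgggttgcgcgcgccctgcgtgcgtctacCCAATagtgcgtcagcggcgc
Ccnb1: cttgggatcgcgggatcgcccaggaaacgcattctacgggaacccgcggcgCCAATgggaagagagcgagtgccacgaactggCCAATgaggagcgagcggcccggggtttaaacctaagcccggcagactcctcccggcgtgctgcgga
Birc5: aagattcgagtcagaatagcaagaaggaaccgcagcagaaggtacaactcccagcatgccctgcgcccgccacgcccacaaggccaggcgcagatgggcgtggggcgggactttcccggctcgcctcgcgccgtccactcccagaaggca

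Promoter entries were found for 9 of the 10 genes, all but Aurkb. In the window from 250 bases before to 50 bases after the start, TTTGAA occurred in 6 of the 9 (Mki67, Top2a, Ccnb2, Cdk1, Aurka and Plk1), against 17.9% of 32851 RefSeq promoters. In Cdk1 the matches began at -71 and -15 relative to the start; in Ccnb2, Plk1 and Aurka the match nearest the start began 5, 31 and 33 bases into the transcript and so is not in the stretches shown. TTCGAA occurred in Top2a and Bub1, against 1.56% of promoters. CCAAT occurred in 8 of the 9, all but Birc5, against 37.4% of promoters, and Ccnb2 carried 3 copies beginning at -87, -54 and -21. With the bases before the start alone, TTTGAA was in 4 of the 9 (16.0% of promoters) and CCAAT in the same 8 (33.8%). Only these letters were searched, a match describes the sequence and does not show binding, and promoters of genes differ in base composition.

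Levels are in CPM, a gene's count scaled to its TMM-adjusted library size, as mean ± SD with n = 3 mice per genotype. Fold changes are log2 values ± standard error from edgeR's quasi-likelihood test, and a negative one means a lower level in the knockout. Libraries held 15429784 to 19293777 counts in named genes, so a gene with 0 counts may reach 3 counts, or 0.150 to 0.206 CPM. Neither this floor nor the intervals below include more than counting error. Cd44 had 32.1, 11.4 and 28.9 CPM in wild-type 1, 2 and 3 and at most 0.0664 CPM in the knockout mice, so no library went against its label. Albumin (Alb), the defining hepatocyte transcript, was at 63900 to 88500 CPM in all 6. Aurka and Bub1 lie on chromosome 2 with Cd44, at 69.5 and 24.9 Mb from it, and the other 8 genes lie on other chromosomes.

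The kinase and its cyclins were high in 1 wild-type mouse, intermediate in another and low in the remaining 4 mice. Cdk1 encodes the kinase that starts mitosis (ENSMUSG00000019942; chromosome 10, 69335146 to 69352938, minus strand). It was at 3.86, 1.04 and 13.0 CPM in wild-type 1, 2 and 3, and at 0.266, 0.902 and 0.548 CPM in knockout 1, 2 and 3. Every wild-type mouse stood above every knockout mouse, but the closest pair, wild-type 2 with 16 counts (95% interval 9.15 to 26.0) and knockout 2 with 18 counts (10.7 to 28.4), could not be separated at this depth. Cdk1 had the largest fold change of the 9 genes tested (5.97 ± 6.25 against 0.572 ± 0.319 CPM, log2 fold change -3.33 ± 0.96, edgeR adjusted p = 0.254; DESeq2 adjusted p = 0.00248).

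Ccnb1 encodes cyclin B1, the main partner of CDK1 (chromosome 13, 100778650 to 100786570). Its levels were 2.39, 0.587 and 12.4 CPM in the wild-type mice and 0.664, 0.952 and 0.137 CPM in the knockout mice. Wild-type 2 lay below knockout 1 and 2, so the genotypes overlapped, and the difference did not pass the test (log2 fold change -3.08 ± 1.16, edgeR adjusted p = 0.348). Ccnb2 encodes cyclin B2, which is held at the Golgi (chromosome 9, 70407692 to 70421547). It was at 1.85, 0.522 and 9.78 CPM in the wild-type mice and at 0.664, 0.952 and 0.891 CPM in the knockout mice. Here wild-type 2 (8 counts) was lower than all 3 knockout mice, but knockout 1 (10 counts) differed from it by less than the counting error (log2 fold change -2.28 ± 0.99, edgeR adjusted p = 0.400). Processed copies of both cyclins are annotated: Ccnb1-ps held 12 counts and Ccnb2-ps 76 counts over the 6 libraries, and how reads that fit both a gene and its copy were assigned is not known.

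**Figure D1:**
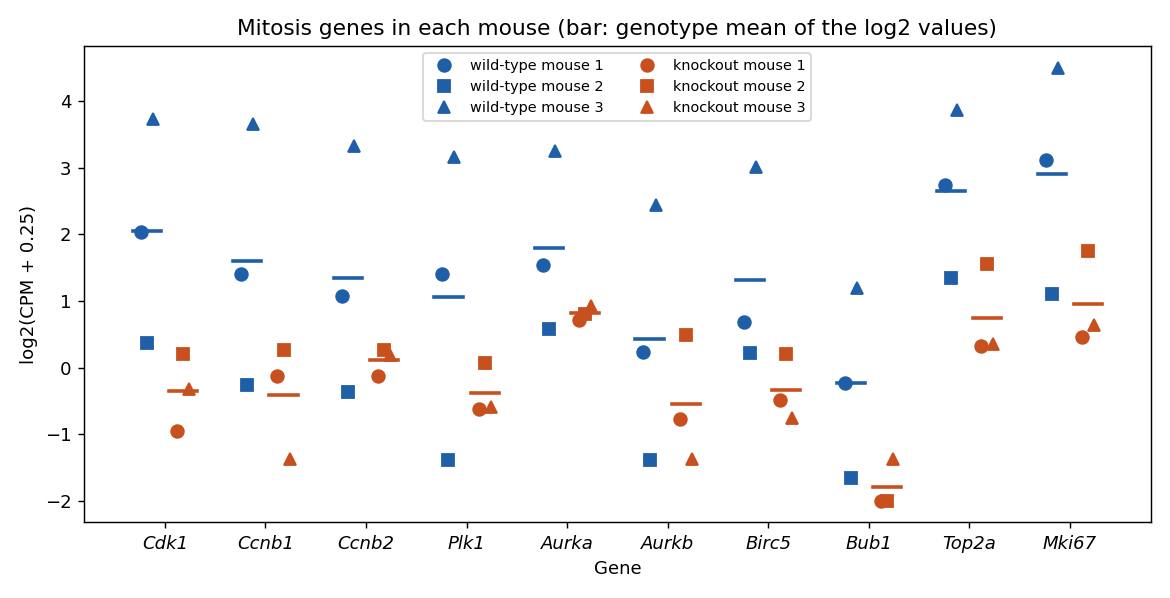
Level of each gene in each mouse as log2(CPM + 0.25), with blue for wild-type, orange for knockout, a shape for each mouse number and a bar at the genotype mean of the log2 values. Wild-type 3 is the highest of the 6 mice for all 10 genes, while wild-type 2 falls among or below the knockout mice for most of them.

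The mitotic kinases followed the same order of wild-type mice. Plk1 encodes polo-like kinase 1, which acts from mitotic entry to cytokinesis (chromosome 7, 122159439 to 122169873). It was at 2.39, 0.131 and 8.71 CPM in the wild-type mice and at 0.398, 0.801 and 0.411 CPM in the knockout mice. Wild-type 2 had 2 counts (95% interval 0.242 to 7.22) and was the lowest mouse of all (log2 fold change -2.77 ± 1.15, edgeR adjusted p = 0.383). Aurka encodes Aurora A, the kinase of the spindle poles (chromosome 2, 172356190 to 172370535). Its levels were 2.67, 1.24 and 9.27 CPM in the wild-type mice and 1.39, 1.50 and 1.65 CPM in the knockout mice, which were nearly level with each other. The genotypes overlapped, and of the 9 genes tested Aurka had the fold change nearest 0 (-1.55 ± 0.69, edgeR adjusted p = 0.410). Aurkb encodes Aurora B, the kinase of the chromosomal passenger complex (chromosome 11, 69045647 to 69051664). It was at 0.925, 0.131 and 5.20 CPM in the wild-type mice and at 0.332, 1.15 and 0.137 CPM in the knockout mice. Knockout 2 was above both wild-type 1 and wild-type 2, and the fold change had the largest adjusted p of the set (-1.87 ± 1.16, edgeR adjusted p = 0.567).

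Birc5 encodes survivin, which brings Aurora B to the centromere (chromosome 11, 117849251 to 117855743). Its levels were 1.36, 0.914 and 7.85 CPM in the wild-type mice and 0.465, 0.902 and 0.343 CPM in the knockout mice. The genotypes did not overlap, though wild-type 2 (14 counts) and knockout 2 (18 counts) differed by less than the counting error (log2 fold change -2.52 ± 0.93, edgeR adjusted p = 0.332; DESeq2 adjusted p = 0.0557). Bub1 encodes a kinase that recruits the checkpoint proteins to the kinetochore (chromosome 2, 127801122 to 127831865). It had 11, 1 and 40 counts in the wild-type mice and 0, 0 and 2 counts in the knockout mice. It was the 1 gene of the 10 that did not pass the filter on low counts and was not tested in edgeR, and DESeq2 gave it no adjusted p. Summed over mice, wild-type exceeded knockout 24.2-fold (95% counting interval 6.37 to 205), and 40 of the 52 wild-type counts were from wild-type 3. With no filter, Bub1 had a log2 fold change of -4.32 ± 1.31 (edgeR adjusted p = 0.260).

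The chromosome proteins were the most deeply counted of the set. Top2a encodes topoisomerase II alpha (chromosome 11, 98992943 to 99024189). It was at 6.42, 2.28 and 14.4 CPM in the wild-type mice and at 0.996, 2.70 and 1.03 CPM in the knockout mice. Knockout 2 lay above wild-type 2, and Top2a passed the DESeq2 threshold but not that of edgeR (log2 fold change -2.25 ± 0.71, edgeR adjusted p = 0.277; DESeq2 adjusted p = 0.0187). Mki67 encodes Ki-67, the coat protein of mitotic chromosomes and a common histological marker of cycling cells (chromosome 7, 135689784 to 135716361). Its levels were 8.43, 1.89 and 22.5 CPM in the wild-type mice and 1.13, 3.11 and 1.30 CPM in the knockout mice. Knockout 2 again exceeded wild-type 2 (log2 fold change -2.54 ± 0.88, edgeR adjusted p = 0.310; DESeq2 adjusted p = 0.168).

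Levels were compared between genes on the scale of CPM per kilobase of annotated exon. In wild-type livers Ccnb2 had the highest mean level, 2.65 ± 3.27 CPM per kilobase, followed by Aurka (1.74 ± 1.69) and Plk1 (1.70 ± 2.02). Bub1 had the lowest, 0.207 ± 0.234. Every SD in the wild-type mice was close to or above its mean except that of Top2a (0.853 ± 0.681). The genes moved together between mice, so these SDs do not measure the error of a difference between genes, and the order was not tested. In knockout livers Aurka (0.598 ± 0.0498) and Ccnb2 (0.546 ± 0.0992) stood highest and close to each other. Plk1 followed at 0.244 ± 0.104, and Cdk1 was next to last at 0.116 ± 0.0646, above Bub1.

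Across the set, 10 of 10 had a lower mean in the knockout, beside 51.2% of all 14145 genes tested. The edgeR threshold of 0.05 on the adjusted p was passed by 0 of the 9, beside 0.0141% of all genes, which are Cd44 and Disp2. Below an unadjusted p of 0.05 lay 6 of the 9, all lower (Cdk1, Top2a, Mki67, Birc5, Ccnb1 and Plk1), beside 7.59% of all genes in that direction. The median log2 fold change of the 9 was -2.52, with a range of -3.33 to -1.55, beside a median of -0.01 over all genes tested. Groups did not overlap for 2 of the 10, Cdk1 and Birc5, beside 9.42% of genes with all wild-type mice higher. DESeq2 called 2 of the 10, Cdk1 and Top2a, where it called 1.33% of all genes lower and 2.03% in either direction. The limma-voom fit called 0 of the 9 (smallest adjusted p 0.401; 1 at an unadjusted p under 0.05).

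The fold changes were smaller without wild-type 3. Without that mouse the median log2 fold change was -1.24, Cdk1 gave -2.06 (edgeR adjusted p = 0.308), Mki67 -1.45, Top2a -1.42, Ccnb1 -1.31, Plk1 -1.24, Birc5 -0.93, Ccnb2 -0.54 and Aurka -0.40, and Aurkb turned to 0.09. DESeq2 then called 0 of the 10 and 211 of all genes, against 287 with all mice. Without wild-type 2, the low wild-type mouse, edgeR still called 0 of the 9 (smallest adjusted p 0.0611, for Cdk1) and 151 of all genes, while DESeq2 called 9 of the 10 and 747 of all genes. DESeq2 called 0 of the 10 without knockout 1 (132 of all genes) or knockout 3 (52), 1 without wild-type 1 (179) and 2 without knockout 2 (176).

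**Figure D2:**
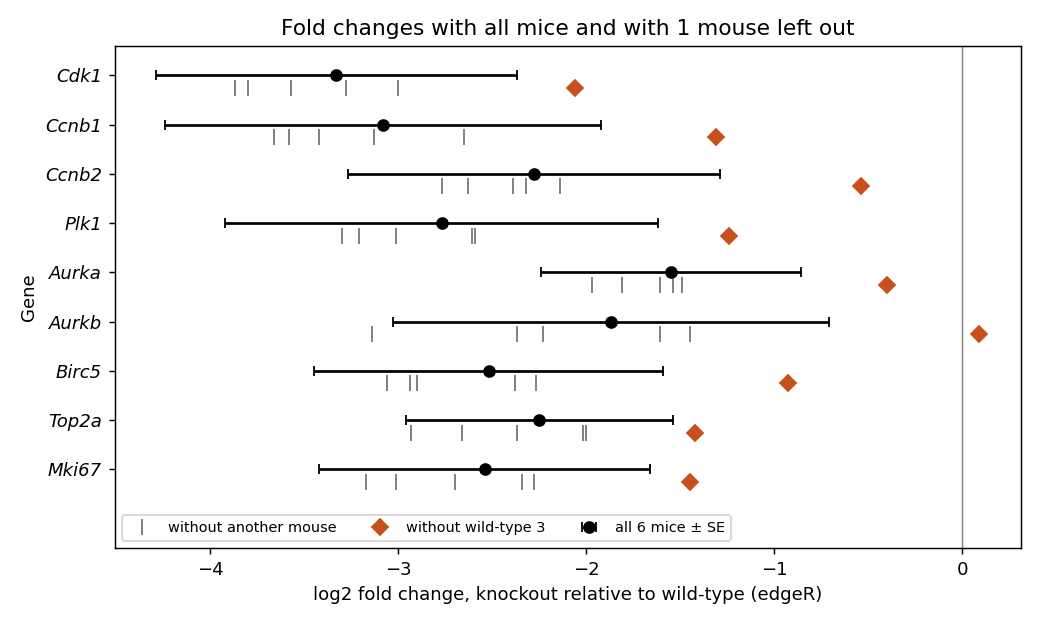
edgeR log2 fold change of each tested gene, with black points and bars for all 6 mice ± SE, and below them the value with 1 mouse left out (grey ticks, orange diamond for wild-type 3). Leaving out wild-type 3 moves every gene towards 0, from a median of -2.52 to -1.24, and puts Aurkb at 0.09.

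The spread between wild-type mice was the main feature of these genes. Summed over the 10, levels were 30.9, 8.81 and 105 CPM in wild-type 1, 2 and 3, and 6.31, 13.0 and 6.58 CPM in knockout 1, 2 and 3. Wild-type 3 alone held 61.6% of the sum over all 6 mice. It was the highest of the 6 for 10 of 10 genes, beside 23.6% of all genes tested, and wild-type 1 was next highest for 9 of 10, Aurkb being the exception. Wild-type 2 was the lowest wild-type mouse for 10 of 10, lay below knockout 2 for 7 of 10, and lay below all 3 knockout mice for 4 of 10 (Ccnb2, Aurka, Aurkb and Plk1). Knockout 2 was the highest knockout mouse for 8 of 10, the exceptions being Aurka and Bub1.

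The ratio of wild-type 3 to wild-type 2 ran from 6.29 for Top2a (95% interval from counting error 4.42 to 9.21) to 66.7 for Plk1 (18.2 to 555), whose denominator is 2 counts. For Mki67, with the most counts, it was 11.9 (8.17 to 18.0), so the spread between these mice was larger than counting error. Between wild-type mice the SD of log2(CPM + 0.25) was 1.27 to 2.30 with a median of 1.70, and between knockout mice it was 0.10 to 0.95 with a median of 0.54. The medians over all genes tested were 0.25 and 0.18. An SD of 1 or more between wild-type mice was found for 10 of 10 genes, beside 3.75% of all genes tested. The genes tested were not matched to these 10 by level, and counting error adds more to an SD at low counts. The wild-type SD exceeded the knockout SD for 10 of 10, beside 67.1% of all genes. The added 0.25 CPM narrows an SD where levels are near it, which was more often so in the knockout mice. Without it, the highest knockout mouse exceeded the lowest 8.40-fold for Aurkb and 6.94-fold for Ccnb1, each with 2 counts in knockout 3. In the wild-type mice these ratios were 39.8 and 21.2. With 3 mice a genotype, each SD is itself imprecise, and a difference in spread between genotypes was not tested.

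**Figure D3:**
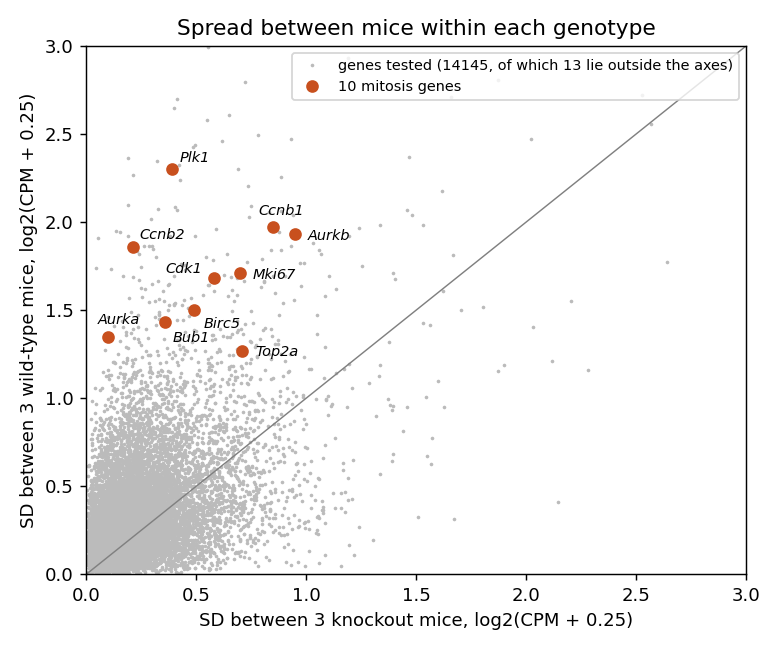
SD of log2(CPM + 0.25) between the 3 knockout mice (x axis) against that between the 3 wild-type mice (y axis) for all genes tested (grey, 13 of them outside the axes) and the 10 mitosis genes (orange), with a line where both are equal. All 10 mitosis genes lie above the line and above a wild-type SD of 1.

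Other genes of mitosis were taken from 5 lists by role, with 91 genes of which 74 were tested. Of these, 0 passed in edgeR (smallest adjusted p 0.217), 65 had a log2 fold change below 0, and the median was -1.08. An edgeR unadjusted p under 0.05 was found for 22, all lower, beside 7.59% of all genes tested in that direction. Wild-type 3 was highest for 59 of the 74, beside 23.6% of all genes tested. DESeq2 called 4 of the 91, all lower, beside 1.33% of all genes called lower. They were the condensin subunits Ncapg and Ncaph, which fold mitotic chromosomes, and the motors Kif23 and Kifc1, the last too low for the edgeR filter. The same shares of all genes stand beside the counts of each list below. Kif23, Kifc1 and Ncaph are named here because DESeq2 called them, so after their values were seen. These lists do not overlap the 10 genes.

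In the list of CDK1 regulators, transcription factors and genes of the anaphase-promoting complex (APC/C), 24 of 26 genes were tested and 0 passed in edgeR. An unadjusted p under 0.05 was found for 7 (all lower), and the median log2 fold change was -0.30. Foxm1, the transcription factor of G2 genes, was at 2.12, 0.848 and 4.64 CPM in the wild-type mice and 0.531, 0.952 and 0.617 CPM in the knockout mice (-1.84 ± 0.63, edgeR adjusted p = 0.294). Mybl2, which encodes B-MYB, was near the floor in every library at 0.343 to 0.664 CPM and was not tested in edgeR. Ccna2, which encodes cyclin A2, gave -2.02 ± 0.79 (edgeR adjusted p = 0.355), and its gene model shares 510 exonic bases with Exosc9 on the opposite strand. Cdc20, the activator of the anaphase-promoting complex, gave -2.54 ± 1.10 (edgeR adjusted p = 0.406), and Ube2c, the ubiquitin-conjugating enzyme of that complex, -3.14 ± 1.19 (edgeR adjusted p = 0.352). Wee1, the kinase that restrains CDK1, averaged 24.5 ± 9.33 CPM against 22.5 ± 0.726 CPM in the knockout, and Pttg1, the separase inhibitor securin, 21.2 ± 0.403 against 22.3 ± 2.65 CPM (log2 fold change 0.07 ± 0.13, edgeR adjusted p = 0.880). Wee1 was lowest in wild-type 3, at 15.3 CPM. The phosphatase gene Cdc25b gave -0.41 ± 0.54 (edgeR adjusted p = 0.820), while Cdc25c had 1.94 CPM in wild-type 3 and at most 0.133 CPM elsewhere and was not tested in edgeR.

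In the checkpoint, kinetochore and passenger list 15 of 24 genes were tested, 0 passed in edgeR, 3 had an unadjusted p under 0.05 (all lower) and the median was -1.30. Bub1b, the checkpoint partner of BUB1, was at 1.79, 0.587 and 5.10 CPM in the wild-type mice and 0.398, 0.751 and 0.411 CPM in the knockout mice (-2.23 ± 0.79, edgeR adjusted p = 0.307). Mad2l1, which encodes the checkpoint protein MAD2, gave -1.63 ± 0.61. Incenp and Cdca8, the scaffold and borealin subunits that hold Aurora B with survivin, gave -1.34 ± 0.49 and -1.94 ± 0.86. The kinetochore motor Cenpe and its partner Cenpf gave -2.16 ± 0.95 and -1.96 ± 1.03, and the checkpoint kinase Ttk did not pass the edgeR filter (DESeq2 adjusted p = 0.390), with 2.39 CPM in wild-type 3 and 0.0664 to 0.351 CPM elsewhere. Of the 18 spindle genes 14 were tested, all with values below 0 (median -1.69; 0 passed in edgeR, 3 had an unadjusted p under 0.05). Tpx2, the activator of Aurora A, gave -2.93 ± 1.23 (edgeR adjusted p = 0.393), the motor Kif11 -1.39 ± 0.66, and Hmmr, which encodes the spindle protein and hyaluronan receptor RHAMM, -2.55 ± 1.24 (edgeR adjusted p = 0.458). Hmmr was at 1.69, 0.131 and 8.41 CPM in the wild-type mice and 0.133, 1.05 and 0.480 CPM in the knockout mice.

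All 8 tested cytokinesis genes of 10 had values below 0 (median -1.97; 0 passed in edgeR, 6 had an unadjusted p under 0.05). The central spindle genes Prc1 and Racgap1 gave -2.27 ± 0.89 and -2.13 ± 0.91, the motor Kif20a -2.10 ± 0.80 and the RhoA activator Ect2 -1.83 ± 0.70. Prc1 and Kif20a share 911 and 1271 exonic bases with Rccd1 and Cdc23 on the opposite strand, and reads from overlapping genes could not be told apart here. The same holds for Cdc20 with Elovl1, Cdca8 with 9930104L06Rik, Cdc25b with Spef1 and E2f8 with Gm2788; among the 10 mitosis genes, overlapping models held 0 counts. Condensin and cohesin genes had a median of -0.42 over 13 tested, of which 0 passed in edgeR and 3 had an unadjusted p under 0.05. The condensin gene Ncapg was at 0.925, 0.653 and 3.26 CPM in the wild-type mice and 0.0664, 0.200 and 0.0686 CPM in the knockout mice, with no overlap (-3.70 ± 0.86, edgeR adjusted p = 0.217; DESeq2 adjusted p = 0.0122). Ncapg shares 944 exonic bases with the more highly counted Lcorl on the opposite strand. Smc2, the condensin ATPase, was at 6.36, 3.26 and 9.17 CPM against 2.06, 3.16 and 1.65 CPM (-1.44 ± 0.41, edgeR adjusted p = 0.239).

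Genes of DNA synthesis had a smaller spread between wild-type mice than the mitosis genes. Of 22 S phase and replication genes 20 were tested, 0 passed in edgeR and the median log2 fold change was -0.57. An edgeR unadjusted p under 0.05 was found for 7, all lower, beside 7.59% of all genes in that direction. DESeq2 called 5, all lower, beside 1.33% of all genes called lower. They were Pcna and, named after their values were seen, the helicase subunits Mcm3, Mcm5 and Mcm6 and the cyclin gene Ccne1. The median SD between wild-type mice was 0.44 for the replication list, against 1.71 for the 9 tested mitosis genes, a description with no test. It was 1.10, 1.16 and 1.13 for the kinetochore, spindle and cytokinesis lists. For the list of CDK1 regulators, transcription factors and APC/C genes it was 0.32, and for condensin and cohesin genes 0.21. A small median was thus not particular to the replication list. Both of these lists mix genes of small and large spread. In the first the SD ran from 0.03 for Pttg1 to 1.86 for Cdc20, and in the second from 0.04 to 1.04, the latter for Ncapg. Pcna, the sliding clamp of DNA polymerase, was at 33.2, 34.7 and 30.9 CPM in the wild-type mice and 16.5, 18.4 and 19.2 CPM in the knockout mice, so that wild-type 2 was the highest and the groups did not overlap (-0.87 ± 0.12, edgeR adjusted p = 0.217; DESeq2 adjusted p = 0.000235). Wild-type 2 thus stood at 0.05 for the replication list and at -0.83 for the mitosis genes, as medians of log2 deviation from the mean of the 6 mice. For the list of CDK1 regulators, transcription factors and APC/C genes wild-type 2 stood at -0.05, and for condensin and cohesin genes at 0.01. These 2 values are again medians over genes of small and large spread. Of 11 tested inhibitors and repressors of the cycle 0 passed in edgeR, with a median of -0.26. Only 1 was lower at an edgeR unadjusted p under 0.05, near the 7.59% of all genes. Cdkn1a, which encodes the CDK inhibitor p21, was at 39.5, 8.94 and 80.6 CPM in the wild-type mice and 19.1, 44.2 and 60.7 CPM in the knockout mice (-0.06 ± 0.76), and E2f8, a repressor of cell cycle genes in hepatocytes, gave 0.38 ± 0.36 (edgeR adjusted p = 0.732).

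**Figure D4:**
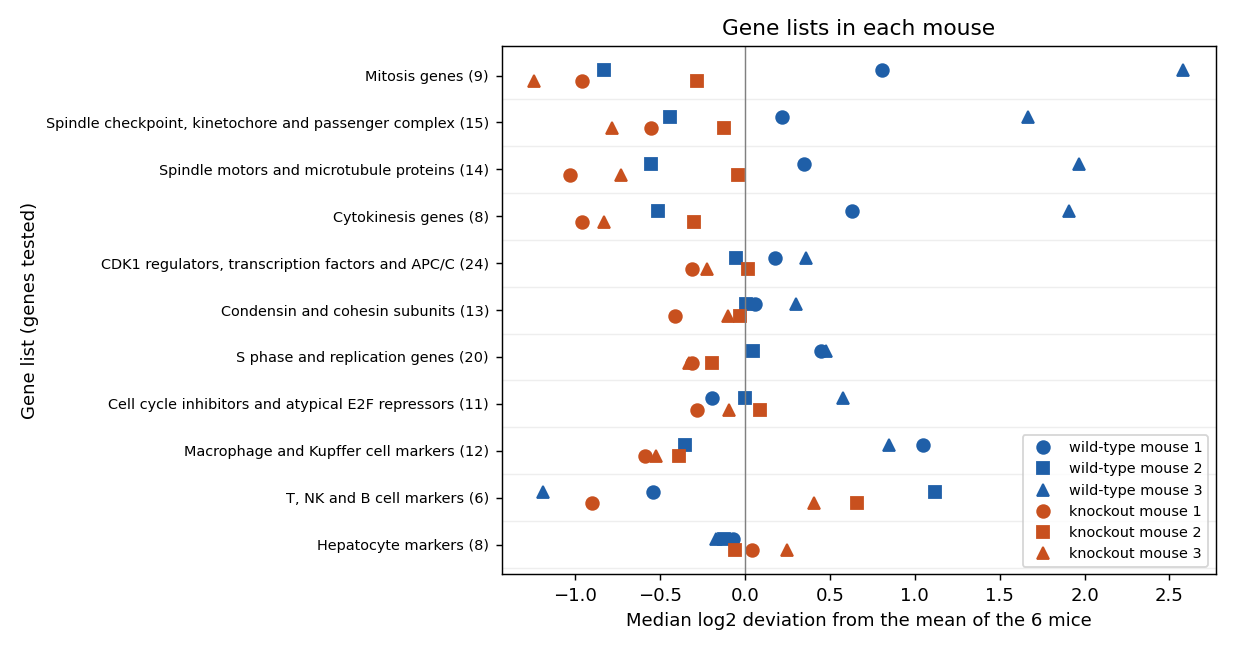
Median log2 deviation of each gene list from the mean of the 6 mice (x axis), with the number of genes tested in brackets, blue for wild-type and orange for knockout mice. Mitosis, kinetochore, spindle and cytokinesis genes spread widely over the wild-type mice and put wild-type 2 below knockout 2. For replication genes wild-type 2 lies at 0.05 and the knockout mice at -0.33 to -0.19. Wild-type 2 lies at -0.05 for CDK1 regulators, transcription factors and APC/C genes and at 0.01 for condensin and cohesin genes. Both lists mix genes of small and large spread.

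The genes whose pattern over the 6 mice was most like the mean of the 10 were found among 12273 protein-coding genes, as those with the smallest root mean square difference in log2 deviations. The 8 nearest were Arhgap11a (0.22), a RhoA GTPase-activating protein, Bub1b (0.22), Kif20a (0.23), Cdca8 (0.26), Iqgap3 (0.30), Knstrn (0.30), which encodes the spindle protein kinastrin, Adam8 (0.31), a metalloproteinase-disintegrin of leukocytes, and Racgap1 (0.32). Of these, 4 were already in the lists of mitosis genes. Adam8 was at 2.56, 1.57 and 12.0 CPM in the wild-type mice and 1.06, 1.40 and 0.686 CPM in the knockout mice. These genes were picked for this likeness, so their fold changes add nothing to it.

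Markers of other cells also varied between mice. For macrophages and Kupffer cells, 12 of 12 markers averaged lower in the knockout, and 0 passed in edgeR. Of these markers, 11 had an edgeR unadjusted p under 0.05 and DESeq2 called 6, all lower, beside 7.59% and 1.33% of all genes. Their summed level was 1230, 473 and 1090 CPM in wild-type 1, 2 and 3 against 399 to 442 CPM in the knockout mice. Wild-type 2 was thus lowest of the wild-type mice for macrophage markers as for mitosis genes, but wild-type 1 rather than wild-type 3 was highest. The 12 T, NK and B cell markers summed to 5.38, 18.2 and 4.38 CPM in the wild-type mice and 3.32 to 13.7 CPM in the knockout mice, and were highest in wild-type 2. The 10 neutrophil markers summed to 5.03 to 8.20 CPM against 2.54 to 6.64 CPM in the knockout, with Ly6g, Mpo, Elane, Ngp and Camp at 6 counts or fewer over all libraries. The 8 hepatocyte markers summed to 86700 to 100000 CPM against 91500 to 113000 CPM in the knockout. This sum was lowest in wild-type 3 and was mostly Alb, at 63900 CPM in that mouse. Of the 8 markers, 3 were instead highest of all mice in wild-type 3. Sums for endothelial markers were 150 to 354 and 178 to 261 CPM, and for stellate cell and fibroblast markers 419 to 616 and 371 to 482 CPM. The largest part of the stellate sum was Dcn (197 to 291 CPM over all mice). Of the 8 stellate markers, 4 were highest of all mice in wild-type 3, beside 23.6% of all genes tested. These included Col1a1 at 78.1 CPM and Col3a1 at 119 CPM, while Acta2 was highest in wild-type 2 at 35.8 CPM. Cholangiocyte markers summed to 51.9 to 65.2 and 27.5 to 36.4 CPM, mostly Spp1 (18.1 to 52.7 CPM over all mice). Plasma cell markers summed to 493 to 675 and 563 to 699 CPM, nearly all Sdc1 (295 to 482 CPM) and Xbp1 (179 to 274 CPM). Jchain ran from 1.58 to 17.6 CPM, highest in wild-type 2, and Mzb1 from 0.163 to 2.13 CPM, so the plasma cell sum does not show them. Mitochondrial genes took 4.73% to 6.04% of counts. The part of these other cells in the mitosis gene values was not tested, and which cells were dividing cannot be read from whole-liver RNA.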

How the data were processed

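Poly(A) RNA from liver was sequenced in 6 libraries, 1 per mouse, and groups were taken from the labels. Values are unnormalised read counts for each gene, as deposited by the authors. Per the submitters' processing notes, the tools were featureCounts 1.5.0-p3, HISAT2 2.0.5 and StringTie 1.3.3b and the build GRCm38.p6. The annotation release, and how strand and reads with several hits were handled, are not stated there, and the library protocol in the labels mentions no strand marking. Of 54682 rows, 54495 matched GENCODE M21 (GRCm38), and 150 gene models without a name (0.273% to 0.509% of counts) were left out of library sizes and tests.

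The counts were fitted with edgeR 4.0.16 in R 4.3.3: filterByExpr, TMM scaling, robust quasi-likelihood F test (legacy = FALSE), Benjamini-Hochberg adjustment over 14145 genes, threshold 0.05. The fits were tested on simulated data with the same variability for every gene and no outlying mouse. That test does not cover genes with a spread like that of the mitosis genes. Standard errors were derived from the fold change and its F value. DESeq2 1.42.0, limma 3.58.1 (voom), RLE scaling, other filters, a non-robust fit, mouse number as a block, unnamed rows kept and leaving out each library were alternatives; the older quasi-likelihood fit and DESeq2 without each library were added after seeing the data. Intervals are exact (Poisson, or binomial for ratios, 95%). With 3 against 3 mice an exact permutation test cannot go below p = 0.1. Mice were taken as replicates, since the labels name separate mice.

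The mitosis genes and the lists were chosen with earlier results of these data known. Named genes are the 10, Cd44, 28 fixed genes of the cell cycle, and the 8 genes nearest in pattern with a mean log2(CPM + 0.25) of at least 0; Kif23, Kifc1, Ncaph, Mcm3, Mcm5, Mcm6, Ccne1 and Disp2 were chosen after their values were seen. The markers Spp1, Sdc1, Xbp1, Jchain, Mzb1, Dcn, Col1a1, Col3a1 and Acta2 were also named after their values were seen. Mouse numbers were checked for pairing and do not pair the mice. The result of 1 marker list is not reported here.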

Additional observations from a re-analysis of the deposited data

How the results depend on the processing

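Over 21 alternatives, 9 tested genes gave 183 fold changes, of which 181 were below 0; Aurkb turned without wild-type 3, to 0.09 in edgeR and 0.04 in DESeq2. The median log2 fold change was -2.52, ran from -3.14 to -1.24 in edgeR and from -3.14 to -1.23 in DESeq2 as each library was left out, and was -2.55 in DESeq2 with all libraries. In the main edgeR fit, 6 of the 9 had an unadjusted p under 0.05. The count of genes past the threshold was 0 in edgeR under every normalisation, filter, fit and left-out library tried and 0 in limma-voom. It was 2 in DESeq2 and 0 to 9 in DESeq2 as each library was left out, where 52 to 747 of all genes were called. Over all genes, edgeR called 2, and 6 with no filter, 1 with the older fit, 151 without wild-type 2 and 0 to 2 without any other library; DESeq2 called 287 and limma-voom 0. Same-numbered mice did not deviate together (correlations of -0.016, -0.018 and -0.01 over genes), no mouse correlated best with its own number, and with mouse number as a replicate block the median log2 fold change was -2.05 with 0 of the 10 and 1 of all genes called. Requiring 1 CPM or more in 3 libraries kept 3 of the 10 genes (median -2.25). Rescaling by RLE left the median SD between wild-type mice at 1.69 against 1.70. Low counts limit Bub1, Aurkb and Plk1, each with 1 or 2 counts in wild-type 2.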
